A study of Drosophila melanogaster with 2 samples.

Results

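Distal peaks in first introns were the stretches of chromatin, away from any annotated start of transcription and between the first and second exon of a gene, at which a gooseberry fusion protein was called bound in Drosophila melanogaster embryos. Gooseberry (gsb) is a transcription factor of the Pax family, whose DNA-binding parts are a paired domain and a homeodomain, and it is known from the segment polarity of the embryo and from the nervous system. First introns are the introns next to the start of a gene, and in flies they are often the longest ones. Enhancers, the stretches of DNA that raise transcription from a promoter at a distance, are commonly found in them, as are further start sites of the same gene.

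The flies were transgenic and expressed gsb-eGFP, gsb fused to enhanced green fluorescent protein, from an insertion described in the labels as targeting gsb of D. melanogaster. Whole embryos aged 0 to 18 h were used, so a peak averages all cells and stages of that span, and most cells of such an embryo are not known to make gsb. Chromatin was sheared by sonication to between 200 and 800 bp and precipitated with an antibody against GFP. There was 1 group of 2 biological replicates, with no untagged or second group among the files used here. Both replicates carried the fusion, so no difference between conditions was measured.

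The members were taken from the joint list of both replicates that met a threshold on the irreproducible discovery rate (IDR). This rate scores whether a region keeps its rank between repeated measurements. Each replicate alone also had such a list, so a place on one does not by itself mean that both biological replicates held the region. At the summit, 15 members had no candidate region in replicate 1 and 20 had none in replicate 2. A member had its summit, the authors' point of highest signal, more than 1 kb from every annotated start site, in no exon of any gene, and in a first intron of a gene spanning it. This held for 526 of the 2877 peaks on the 6 main chromosome arms, or 18.3% (exact 95% interval 16.9 to 19.7%). Another 250 distal summits lay in later introns, 240 between genes and 153 in exons, and 1708 lay within 1 kb of a start site. Of the 526, 220 (41.8%) also lay in a later intron of another transcript, so first and later introns are not exclusive labels. A protein-coding gene hosted 517 members, and the 9 others lay in genes of other kinds only. The nearest start site belonged to the host in 423 members (80.4%) and to another gene in the remaining 103.

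Sequences around the summit are shown for 8 of the strongest members, because the results on short words below turn on them. The first 5 were taken by signal, and the last 3, from ranks 6 to 11, because they hold the word in capitals. Each runs 100 bases to either side of the summit on the plus strand of dm6, taken from the RefSeq genome. Capitals mark the 6-base word ACAGTG, or CACTGT where it lies on the minus strand. The stretches are chrX:4910264-4910464 in CG32772, chrX:3742122-3742322 in Tlk, chrX:5918822-5919022 in CG3726, chrX:4324879-4325079 in norpA, chr3L:3060705-3060905 in CG32486, chrX:13640408-13640608 in NFAT, chr3R:11649570-11649770 in Csk and chr2L:3655731-3655931 in for.
CG32772: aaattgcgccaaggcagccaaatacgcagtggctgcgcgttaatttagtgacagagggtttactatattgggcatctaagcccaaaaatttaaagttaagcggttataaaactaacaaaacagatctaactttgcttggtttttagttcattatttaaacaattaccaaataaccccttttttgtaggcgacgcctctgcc
Tlk: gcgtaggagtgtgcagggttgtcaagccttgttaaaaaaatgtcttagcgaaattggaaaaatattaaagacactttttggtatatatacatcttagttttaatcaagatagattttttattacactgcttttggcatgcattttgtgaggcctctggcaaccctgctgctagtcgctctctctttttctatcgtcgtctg
CG3726: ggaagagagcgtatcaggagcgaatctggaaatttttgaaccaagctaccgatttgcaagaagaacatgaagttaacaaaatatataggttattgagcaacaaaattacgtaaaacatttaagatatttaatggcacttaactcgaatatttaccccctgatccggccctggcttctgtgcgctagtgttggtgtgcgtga
norpA: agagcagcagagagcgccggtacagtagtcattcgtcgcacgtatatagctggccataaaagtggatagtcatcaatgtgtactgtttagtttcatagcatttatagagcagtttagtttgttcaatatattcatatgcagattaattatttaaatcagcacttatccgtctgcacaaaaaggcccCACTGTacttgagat
CG32486: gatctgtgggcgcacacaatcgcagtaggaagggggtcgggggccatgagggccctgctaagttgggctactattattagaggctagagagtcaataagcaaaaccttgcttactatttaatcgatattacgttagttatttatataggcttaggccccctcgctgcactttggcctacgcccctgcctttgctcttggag
NFAT: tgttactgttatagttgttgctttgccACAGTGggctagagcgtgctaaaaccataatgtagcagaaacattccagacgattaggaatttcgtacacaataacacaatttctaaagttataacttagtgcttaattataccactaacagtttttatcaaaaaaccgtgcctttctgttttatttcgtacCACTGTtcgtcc
Csk: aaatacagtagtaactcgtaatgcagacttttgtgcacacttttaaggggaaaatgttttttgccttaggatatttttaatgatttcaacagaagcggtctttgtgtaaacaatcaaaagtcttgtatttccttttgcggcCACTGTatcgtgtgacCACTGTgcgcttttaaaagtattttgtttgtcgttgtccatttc
for: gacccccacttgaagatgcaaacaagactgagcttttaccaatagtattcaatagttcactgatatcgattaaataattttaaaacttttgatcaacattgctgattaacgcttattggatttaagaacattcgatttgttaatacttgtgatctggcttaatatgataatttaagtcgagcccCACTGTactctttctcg

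Of the 10 members considered here, which leave out CG12769, the word was found in norpA, NFAT, Csk and for, and not in the other 6. In NFAT it lay on the plus strand 73 bp before the summit and on the minus strand 89 bp after it, so both copies read toward the summit. In norpA and for there was a single copy, on the minus strand 86 bp and 84 bp after the summit. Csk held 2 copies on the minus strand, 41 bp and 57 bp after the summit.

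The strongest members lay in genes of many functions. Signal is the peak caller's own value for a region, on a scale not given in the sources used here, and in the members its median was 110.4 (quartiles 84.7 and 169.4). The highest was in CG32772, at chrX:4910226-4910515, with a signal of 1061 in the joint list, 569.6 in replicate 1 and 481.8 in replicate 2. Next came Tlk, which encodes a kinase of chromatin assembly, with a joint signal of 908.7 at chrX:3742073-3742360, 496 in replicate 1 and 435.6 in replicate 2. In both genes each replicate's signal was several times the median of members in that replicate (60.1 in replicate 1 and 56.5 in replicate 2). Replicate 1 gave the higher value in both.

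CG3726 followed at chrX:5918773-5919059, with 462.1 in replicate 1 and 339.1 in replicate 2. norpA encodes the phospholipase C of phototransduction, and its member at chrX:4324855-4325116 had 400.2 in replicate 1 and 388 in replicate 2. CG32486, at chr3L:3060671-3060932, had 379.1 and 365.4 in replicates 1 and 2. In these 3 genes replicate 1 gave the higher value. NFAT, the fly member of a family of calcium-dependent transcription factors in mammals, had 337.1 and 363.8 in replicates 1 and 2 at chrX:13640372-13640640. CG9837 had 337.2 and 353.9 at chr3R:8811556-8811809, and CG12769 had 265.8 and 296.5 at chr2R:8060880-8061144. In NFAT, CG9837 and CG12769 replicate 2 gave the higher value.

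The next hosts included chif, which encodes the activating subunit of a kinase of DNA replication and shares its member with Hyls1, with 274.5 in replicate 1 and 264.1 in replicate 2. Csk, a kinase that restrains Src kinases, had 223.1 and 266.4. The gene for, whose product is a cGMP-dependent protein kinase, had 214.8 and 247.8. Weaker signals followed in the MAP kinase kinase kinase Mekk1 (194 and 238.2 in replicates 1 and 2), CG34417 (229.3 and 213.7), and simj, a gene of the Mi-2 chromatin remodelling complex (247 and 189.6). CG9328 had 226.8 and 196.9, and the member shared by the nuclear receptor gene Hr3 and CG12912 had 211.8 and 202.8.

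The remaining strongest hosts were a second member in Tlk, Su(Tpl) together with the chromatin remodeller gene Mi-2, Hsp83 (a chaperone of the Hsp90 family), Btk (a tyrosine kinase), mnb (a kinase of neural growth), Moe (a linker of actin to the cell membrane), CHES-1-like (a forkhead transcription factor), pico (an actin regulator) and CG32425. Their joint signals ran from 408 down to 344. All of the 25 strongest members were also on each replicate's own thresholded list. Of these 25, 11 lay on X, which held 22.8% of all members and 21.7% of first-intron candidate regions, and 16 lay within 2 kb of a start site. The median signal of members was 128.8 on X and between 105.4 and 109.5 on the 4 large autosomal arms, and chromosome 4 had no member among 4 candidates.

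The replicates ranked the members similarly. Where both had a candidate region at the summit, which was so for 497 members, the Spearman rank correlation between the replicates' signals was 0.71. This is a correlation across peaks of a list that was itself chosen for repeated ranks. Median signals were 60.1 in replicate 1 and 56.5 in replicate 2. Of the 526, 226 (43.0%, exact 95% interval 38.7 to 47.3%) were on both replicates' own thresholded lists, 89 on that of replicate 1 only, 53 on that of replicate 2 only, and 158 on neither. Among the 175 strongest by joint signal, 163 were on both, and among the 175 weakest, 1 was, counts that follow in part from the threshold each list applies. These files do not give sequencing depth, so its part in signals, ranks and list membership was not tested.

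**Figure D1:**
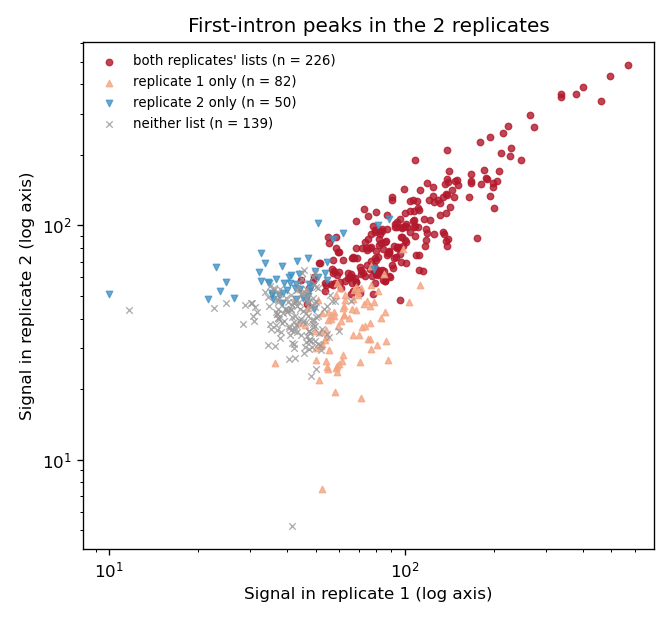
Signal of each member in replicate 1 (x axis) and replicate 2 (y axis), both log axes in the peak caller's units, for the 497 members with a candidate region in both replicates; colour and shape show whose own list held the member. The 226 members on both lists occupy the upper right, and the 139 plotted members on neither list gather where both signals are low.

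The 526 members came from 20877 distal first-intron candidate regions on the joint ranked list, so 2.52% passed (exact 95% interval 2.31 to 2.74%). The share was 2.07% over all main-arm candidates, 1.03% (0.907 to 1.17%) in later introns and 0.880% (0.772 to 0.998%) between genes. Shares are over candidate regions of the same libraries, and no test of this difference was made. The order was the same in each replicate's own list, with 1.83% of first-intron candidates, 0.671% of later-intron and 0.648% of intergenic ones in replicate 1, and 1.60%, 0.665% and 0.571% in replicate 2. Beside the members' median signal of 110.4, the medians were 105.9 in later introns and 106.7 between genes.

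Distance from a start site moved with the share that passed. Between 1 and 2 kb, 180 of 4693 first-intron candidates passed (3.84%, exact 95% interval 3.30 to 4.43%), against 1.46% in later introns and 1.32% between genes. Between 2 and 5 kb the 3 shares were 2.87%, 1.00% and 1.06%, and from 5 to 10 kb they were 1.82%, 1.31% and 0.718%. From 10 to 20 kb they were 1.17%, 0.858% and 0.477%. Beyond 20 kb, 12 of 1023 first-intron candidates passed (1.17%, 0.608 to 2.04%), and this interval overlapped that of later introns (0.352 to 0.866%). First introns thus had the highest share in each bin, with intervals clear of both others only up to 5 kb. Members lay a median of 2972 bp from the nearest start site and the first-intron candidates not on the list 4157 bp. Their introns had median lengths of 10410 bp and 14740 bp, and the summits lay a median of 43.6% and 51.7% of the way along them.

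**Figure D2:**
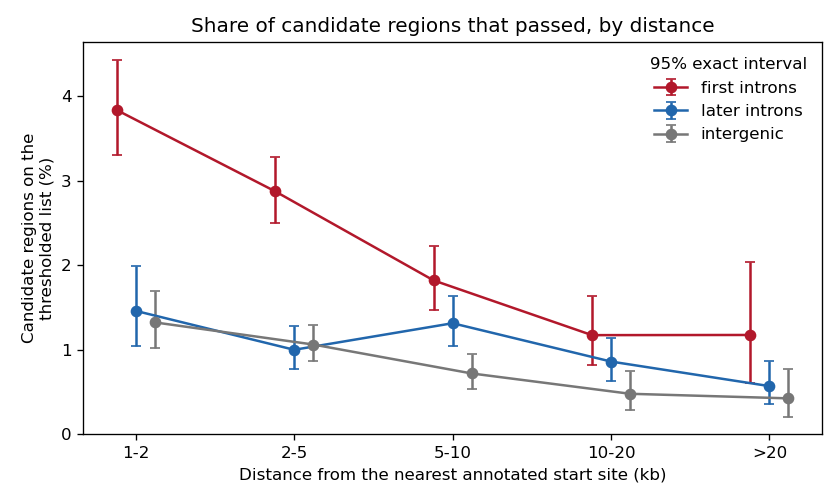
Percentage of candidate regions on the joint thresholded list (y axis) by distance from the nearest annotated start site in kb (x axis) for first introns, later introns and intergenic regions; points are shares and bars exact 95% binomial intervals. First introns fall from 3.84% at 1 to 2 kb to 1.17% beyond 10 kb.

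The 1 kb limit cut through a continuous range of positions. The members just outside it lay in Svil at 1001 bp (signal 178.3), chif at 1002 bp (547.2) and C3G at 1006 bp (222.7). The first-intron summits just inside it lay in Moe at 997 bp (119.9), CG13917 at 980 bp (273.4) and jbug at 977 bp (92.3). In all, 448 first-intron summits were within 1 kb and are counted with the promoters. The weakest members, with joint signals of 2.76 and 2.60 in CG3764 and 2.58 in Dora, had no candidate region in replicate 2 at their summit. Each of the 20 members with a signal under 20 overlapped a stronger passing peak, and with chains of overlapping members counted once 496 remained.

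The 526 members lay in 365 host genes, which is 16.0% of the 2287 genes with a distal candidate region in a first intron. A single member was found in 265 hosts, 2 in 60, 3 in 22 and 4 or more in 18, and these 18 together had 91. The most, 9, were in sbb, which encodes a transcriptional corepressor, spread over 37948 bp of its first introns with signals from 72.0 to 208.6. Of those 9, 8 were on the list of replicate 1 and 5 on that of replicate 2. CHES-1-like had 8 within 12997 bp, with signals from 60.7 to 352.5, and these were 8 of its 11 candidates (72.7%). Here 7 were on the list of replicate 1 and 6 on that of replicate 2.

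Mef2, the transcription factor gene of muscle, had 6 members with signals from 22.8 to 138.8, of which 2 were on the list of replicate 1 and 1 on that of replicate 2. simj also had 6, all on the list of replicate 1 and 4 on that of replicate 2, with signals from 55.1 to 432.7. CG3764 had 6, of which 1 was on both replicates' lists and the others on neither. Counting overlapping members once left 4 in each of Mef2, simj and CG3764. The hosts of 5 members were shn (a zinc finger protein of Dpp signalling), Pdp1 (a bZIP factor of the circadian clock), Evi5 (a regulator of Rab GTPases) and cv-c. Those with 4 were Tlk, Hr4, apt, Snoo, Nuak, kibra, ush, babos and rhea. In Tlk all 4 were on both replicates' lists, with signals from 189.8 to 908.7, while in rhea, the talin gene, none was on both, with signals from 13.2 to 88.6. Hosts with equal numbers of members thus differed in signal.

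**Figure D3:**
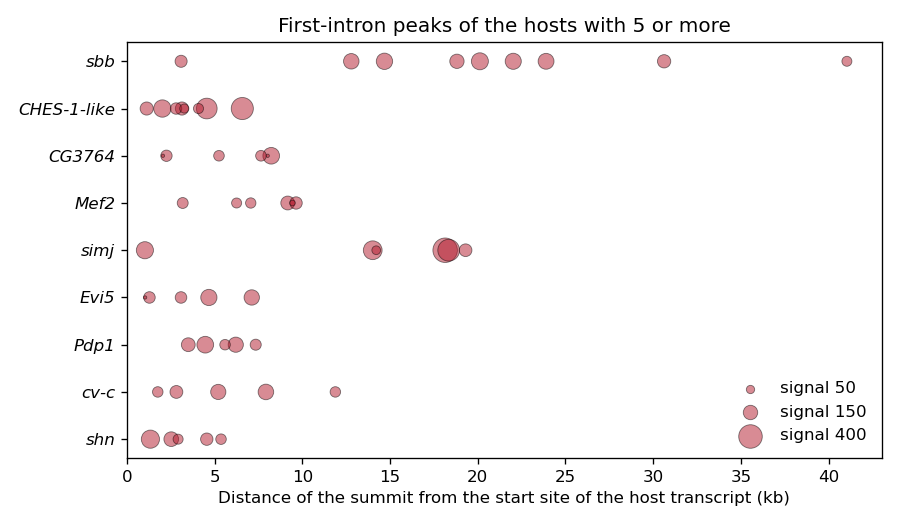
Distance of each summit from the start site of its host transcript in kb (x axis) for the 9 genes with 5 or more members (y axis, in falling order of members); the area of a circle rises with the joint signal. In sbb the members spread from 3091 to 41039 bp, and in CHES-1-like from 1130 to 6580 bp.

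Of the 365 hosts, 125 (34.2%, exact 95% interval 29.4 to 39.4%) also had a passing summit within 1 kb of one of their own start sites. Among all 2287 genes with a first-intron candidate the share was 22.7%, and among the 1922 that hosted no member it was 20.5% (18.7 to 22.4%). Of genes with distal peaks in later introns only, 50 of 146 had a promoter peak, also 34.2%. The 2 kinds of host gave an odds ratio of 1.00 in a two-sided Fisher exact test (95% interval 0.667 to 1.498, exact p = 1), and that interval allows a difference in either direction. With the limit set at 500 bp from a start site the odds ratio was 1.80 (1.25 to 2.60, Fisher exact p = 0.00195). A promoter peak was still any summit within 1 kb there. A distal peak between 500 bp and 1 kb from its host's start site thus also counted as the promoter peak. That ratio therefore cannot speak for a separate promoter peak. With the authors' conservative list the odds ratio was 1.55 (1.00 to 2.39, Fisher exact p = 0.0564). Of the 125, 64 had a promoter peak stronger than their strongest member. In sbb the promoter signal was 300.4 against 208.6, whereas in Tlk it was 88.95 against 908.7.

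Of the members 43.0%, and of distal peaks in later introns 33.2%, were on both replicates' lists. The odds ratio was 1.52 (95% interval 1.11 to 2.08), with a two-sided Fisher exact p of 0.00969 and, over the 6 comparisons of class properties, a Benjamini-Hochberg adjusted p of 0.0581. The threshold of 0.05 was therefore missed. Over the alternatives the adjusted exact p ran from 0.00887, with the 500 bp limit, to 0.826, at a global IDR of at most 0.001, and it was past the threshold in 5 of 11. Those 5 include each replicate's list alone, where every peak is on its own list and only the other list counts. Against intergenic distal peaks (37.9%) the adjusted exact p was 0.618. The shares of peaks with signal, or with GC content at the summit, above the median of the whole list did not pass either comparison. GC content within 100 bp of the summit had a median of 36.8% in members and 37.8% in both other distal classes.

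Among the gene lists of embryonic pathways, receptors and ligands of signalling were hosts beside antagonists. Each count below is to be read against the 16.0% of genes and 2.52% of candidates over all eligible genes. Of 18 segment polarity, Wingless and Hedgehog genes with a first-intron candidate, 5 were hosts, with 6 of 299 candidates passing (2.01%). They included fz, a Wingless and planar polarity receptor (88.4 and 77.2 in replicates 1 and 2), dally, a glypican coreceptor (61.6 and 92.7), nkd, an inhibitor of Wingless (76.9 and 29.5), and Notum, an enzyme that inactivates Wingless (36.8 and 41.9). The member of fz was on both replicates' lists, those of dally and nkd on 1 each and that of Notum on neither.

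Of 19 genes of EGF receptor and FGF signalling, 7 were hosts, with 11 of 224 candidates passing (4.91%, exact 95% interval 2.48 to 8.62%). The strongest were in the FGF ligand gene ths (139.9 and 152.7), in aos, a secreted antagonist of the EGF receptor (134.4 and 93.6), in Star, written S, whose product moves EGF receptor ligands (107.8 and 98.4), and in aop, an ETS repressor (98.0 and 89.1). All 4 were on both replicates' lists. Of 10 Dpp, BMP and activin genes, 4 were hosts, with 9 of 166 candidates passing (5.42%, 2.51 to 10.04%). These were the receptor genes wit (138.2 and 112.7) and tkv (no region in replicate 1, 34.2 in replicate 2), shn (99.1 and 142.3), and the secreted BMP antagonist gene sog (100 and 99.5). In tkv the member was on neither replicate's list.

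Of 7 Notch pathway genes, 1 was a host, the ubiquitin ligase gene neur (118.9 and 92.6), with 1 of 60 candidates passing (1.67%). The symbol Dl of this list matched no gene of the annotation used and is not counted. Of 18 mesoderm and muscle genes, 2 were hosts, with 7 of 161 candidates passing (4.35%), of which 6 lay in Mef2 and 1 in kirre, an adhesion gene of myoblast fusion (68.4 and 57.0). Of 19 neuroblast and neuron genes, 2 were hosts, with 3 of 197 candidates passing (1.52%), namely the transcription factor gene grh (79.0 and 65.2) and brat, a regulator of neuroblast fate (46.4 and 51.6). The share of candidates was above that of all genes in the muscle list, where 1 gene gave 6 of the 7 members, and below it in the Notch and neural lists.

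Of 22 axon guidance and adhesion genes, 5 were hosts, with 7 of 460 candidates passing (1.52%), among them the phosphatase gene Ptp10D (76.1 and 80.1), the integrin gene mew (87.4 and 74.6), the guidance ligand gene sli (78.5 and 47.0) and the Netrin receptor gene fra (68.4 and 43.7). Of 14 genes of BTB and architectural chromatin factors, 5 were hosts, with 6 of 344 candidates passing (1.74%). They included Trl, the GAGA factor (107.8 and 105.6), ph-p, a Polycomb group gene (98.2 and 97.0), trx, a histone methyltransferase gene (76.7 and 80.9), and bab1 (83.8 and 64.6). All of these 4 were on both replicates' lists.

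Of 14 ecdysone response and nuclear receptor genes, 5 were hosts, with 12 of 327 candidates passing (3.67%, exact 95% interval 1.91 to 6.32%), led by Hr3, the cyclin-dependent kinase gene Eip63E (129.6 and 127.8), Hr4 (100.9 and 84.9) and Eip75B (66.4 and 72.9). Of 18 genes of small GTPases and their regulators, 5 were hosts, with 12 of 322 candidates passing (3.73%), among them cv-c (79.1 and 93.8), Rgl (71.2 and 62.1) and siz (45.7 and 64.8). Of 14 Hox, gap and pair-rule genes, 2 were hosts, with 3 of 262 candidates passing (1.15%), in Abd-B (57.5 and 42.6) and Antp (49.3 and 55.9). Of 20 genes of RNA-binding proteins, 2 were hosts, shep (87.2 and 96.9) and Sxl (59.4 and 37.2), with 2 of 598 candidates passing (0.334%, 0.0405 to 1.20%). That interval lay below the 2.52% of all first-intron candidates, and the intervals of the other 11 lists held it. These intervals count candidates, and candidates of the same gene are not independent. Counted by genes, the RNA-binding hosts were 10% (exact 95% interval 1.2 to 31.7%), which held the 16.0% of all eligible genes. The EGF receptor and FGF hosts were 36.84%, with an interval (16.29 to 61.64%) whose lower bound lay just above it, and the intervals of the remaining lists held it. By candidates, the EGF receptor and FGF interval (2.48 to 8.62%) held the 2.52%. The 12 lists were chosen with earlier results of these data known, and their intervals are not adjusted for the number of lists. They therefore cannot show that a list has more or fewer hosts than other genes. No test of a list was made.

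A few short words were found more often at the summits of members than nearby. Of 21 motifs, searched on both strands within 100 bp of the summit and in a window of equal width centred 500 bp away, 4 (19.0%) passed an exact McNemar test with adjusted p under 0.05. These words had been picked out in earlier work on the same peaks, so the tests are not independent support for them. ACAGTG was in 131 of 526 members (24.9%) and in 8.94% of the windows 500 bp away (adjusted exact p = 3.12e-11). Among the 20351 first-intron candidates not on the list it was in 8.05%. ACACTG was in 19.0% of members, 7.60% of the windows away (adjusted exact p = 1.14e-06) and 7.66% of candidates not on the list. ACTGTA was in 16.9%, 9.89% (adjusted exact p = 0.00560) and 5.95% of them. AGGGTA was in 8.94%, 4.18% (adjusted exact p = 0.0138) and 4.13%.

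ACTGTA read on its other strand overlaps ACAGTG by 5 bases, and of the 89 members with the former 56 held both as one run of overlapping letters. At least 1 of these 2 words or ACACTG was in 228 members. ACTGTA and AGGGTA no longer passed in the strongest peak of each gene (adjusted exact p = 0.354 and 0.205), nor over 2 kb from a start site (adjusted exact p = 0.255 and 0.166). With these fewer peaks the ratio of the share at the summit to that away was 1.38 and 1.52 for ACTGTA, against 1.71 in all members, and 1.94 and 2.07 for AGGGTA, against 2.14. No word passed as a difference between members and the other distal classes, with 0 of 42 comparisons (0.00%) past an adjusted Fisher exact p of 0.05. ACAGTG was in 20.8% of later-intron and 19.6% of intergenic distal peaks (adjusted exact p = 1 and 0.820).

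Motifs of the kind gsb could contact fell short of the threshold in the same test. GTCACGC, a core of the paired domain's site, was in 3 members (0.570%), in 0.190% of windows 500 bp away (adjusted exact p = 0.805) and in 1.11% of candidates not on the list. TAATTA, a homeodomain site, was in 16.5% of members against 14.3% (adjusted exact p = 0.575), and in 11.9% of candidates not on the list. Homeodomain dimers, TAAT and ATTA with 2 bases between, were in 1.90% against 1.14%, and with 3 bases between in 2.28% against 1.52% (adjusted exact p = 0.682 and 0.705). Among candidates not on the list these 2 dimers were in 0.929% and 1.25%, and the difference from members was not tested. The other 13 motifs did not pass either. Their shares follow in the order members, windows 500 bp away and candidates not on the list. The DREF element TATCGATA was in 0.380%, 0.190% and 0.226%, and the M1BP site GGTCACACT in 0, 0.190% and 0.0835%. The GAGA repeat GAGAGAG was in 3.42%, 5.703% and 3.02%, and the CA repeat CACACACA in 4.56%, 8.37% and 7.14%. The Zelda site CAGGTA was in 3.99%, 4.75% and 3.86%. The E-box CAGCTG was in 9.89%, 10.08% and 9.81%, and the E-box CACGTG in 2.09%, 1.14% and 2.73%. The grainy head site ACCGGTT was in 0.570%, 0.951% and 0.816%, and the pangolin site CTTTGAT in 3.23%, 5.51% and 3.67%. The POU site ATGCAAAT was in 4.18%, 5.89% and 4.585%. A run of 8 A was in 13.9%, 16.16% and 12.04%. ACCCTA was in 4.56%, 2.47% and 2.904%, and CGATAG in 4.18%, 2.66% and 3.22%. Members were not tested against the candidates. The CA repeat came nearest to the threshold, being less frequent at the summits than in the windows away (8.37%, adjusted exact p = 0.0567). It was past the threshold in 6 of the 14 alternatives, less frequent at the summits in each, with 0.951% against 5.51% within 50 bp (adjusted exact p = 8.10e-04). These letters are a small part of what either domain can contact, and their frequency says nothing of the factor. Described without a test, TAATTA was in 37 of the 175 strongest members and 18 of the 175 weakest, ACAGTG in 53 and 38, and the E-box CAGCTG in 8 and 26. Median GC content was 35.3% over those strongest members and 41.3% over those weakest ones, and its part in these shares was not tested.

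The word ACAGTG was densest beside the summit, and it was directed. Within 50 bp of the summit it occurred 0.912 times per kb of members' sequence, between 50 and 125 bp 1.90 times, against 0.435 times at either distance in candidates not on the list, so its density was above theirs at both distances. Within 50 bp its share was not past the threshold (ratio to the window away 1.74, adjusted exact McNemar p = 0.144). Of 223 copies within 150 bp, 176 read toward the summit, that is on the plus strand before it or on the minus strand after it, and 47 read away (78.9% toward, exact 95% interval 73.0 to 84.1%). The pattern was noticed in these members, so it is given here without a test. Copies in the same member are not independent, and the intervals cover counting error only.

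With the summits and list of replicate 1 alone 130 of 159 copies read toward the summit, and with those of replicate 2 alone 113 of 143, or 81.8% and 79.0%. Of the 341 first-intron peaks of replicate 1, 231 were on both lists, and of the 296 of replicate 2, 229 were. Many of the same copies are thus counted again, and the 2 shares are not separate support for the direction. In peaks outside first introns the word was directed the same way, with 77 of 94 copies toward the summit in later introns (81.9%, exact 95% interval 72.6 to 89.1%), 60 of 85 between genes (70.6%, 59.7 to 80.0%) and 407 of 574 in promoters (70.9%, 67.0 to 74.6%). In first-intron candidates not on the list 1333 of 2631 copies did so (50.7%, 48.7 to 52.6%). Copies facing the summit were on both of its sides in 36 members, as in NFAT above. The base before the word was T in 41.3% of copies and C in 35.9%, and the base after it was G in 48.0%. These base shares were taken in members only, so whether they differ from those of copies elsewhere was not tested. ACTGTA, read as TACAGT, was directed like ACAGTG, with 134 of 160 copies toward the summit (83.7%), and of the copies of ACACTG 106 of 154 read toward it (68.8%). AGGGTA pointed the other way, with 25 of 74 copies toward the summit (33.8%, 23.2 to 45.7%). In later introns, between genes and in promoters the shares of AGGGTA toward the summit were 51.1%, 51.7% and 41.5%. In the same order they were 63.1%, 74.2% and 68.7% for TACAGT and 79.3%, 74.6% and 56.9% for ACACTG.

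**Figure D4:**
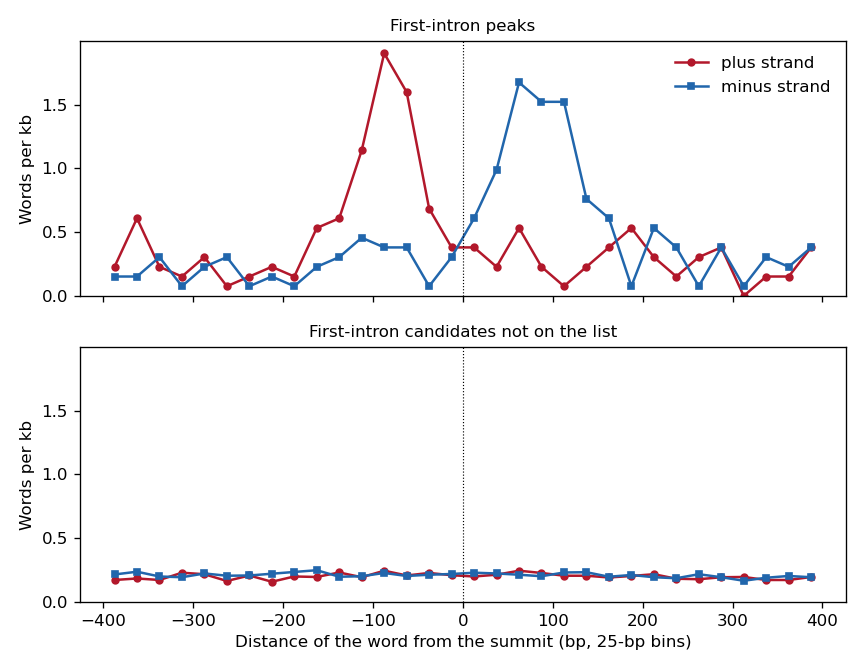
Copies of the 6-base word shown in capitals in the printed sequences, per kb of sequence in bins of 25 bp (y axis), by distance from the summit in bp (x axis) and strand, in the 526 members (top) and the 20351 first-intron candidates not on the list (bottom). In members the plus strand peaks at 1.90 per kb before the summit and the minus strand at 1.67 after it, and both strands stay at or below 0.2496 per kb in the candidates.

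All 6-base words were then counted in the same windows, an analysis added after the data were seen. Of 2080 words, with both strands as 1 word, 23 (1.11%) passed the exact McNemar test at an adjusted p under 0.05, 19 of them more frequent at the summit and 4 less. ACAGTG and ACACTG were among the 19, while ACTGTA and AGGGTA were not among the 23, so their calls hold only within the 21 motifs. Of the 19, 7 held CAGTG on either strand and 5 were made of A and T only. The second kind included TATTAA, in 29.1% of members against 15.4% of windows away (adjusted exact p = 1.51e-04), and ATATTA, in 31.4% against 17.9% (adjusted exact p = 1.81e-04). The less frequent ones included GCTGAC, in 2.66% against 8.37% (adjusted exact p = 0.00985), and CGTCGC, in 2.47% against 7.41% (adjusted exact p = 0.0158).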

How the data were processed

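Peak lists of chromatin immunoprecipitation sequencing (ChIP-seq) with an anti-GFP antibody, on assembly dm6 per the labels, were used for 2 biological replicates and for both together. The deposited signal of a region is the peak caller's value, of unknown scale, and the deposited score is capped at 1000 and was at least 830 in the joint thresholded list. The authors' ranked lists give −log10 of the global IDR, which in the joint thresholded list was at most 0.01. The sources used here do not give the aligner, peak caller, versions or reads per library, nor what a further source file of all lists, and 1 named for thresholded lists only, holds.

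Summits were placed on the genes of Ensembl release 115, transposable elements left out, and sequence was read from the RefSeq genome (release 6). Chromosome lengths were compared with the lists. A candidate is a region of the joint ranked list. A replicate's signal is that of its strongest candidate region containing the joint summit. Shares have exact (Clopper-Pearson) 95% intervals, which cover counting error only. Fisher exact and exact McNemar tests, with Benjamini-Hochberg adjustment, were run over peaks, which are not independent replicates. The tests were tried on simulated peaks drawn independently, which cannot show what this lack of independence does. Python 3.11.15, NumPy 2.4.6, SciPy 1.17.1, statsmodels 0.14.6 and matplotlib 3.10.9 were used. Members, gene lists and motifs were chosen with earlier results of these data known. Genes named are hosts of the 25 strongest members, up to 4 hosts a list, hosts of 4 or more members, and members at the limits. Of 340 list symbols 2 matched no gene of the annotation, Dl of the Notch list and nos of the RNA-binding list. The symbols otd and oc name the same gene, which leaves 337 genes. Alternatives were other lists, each replicate alone, other distances, transcripts and windows, a GC-stratified test, and 1 peak per gene or chain. A further host gene is not reported here.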

Additional observations from a re-analysis of the deposited data

How the results depend on the processing

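The first-intron count was 526, and 511 with the conservative list, but 212 at a global IDR of at most 0.001, 346 over 2 kb from a start site and 306 without summits also in a later intron. From 1 replicate's list alone it was 296 to 341. The share of candidates that passed, 2.52%, was 1.02% at that stricter IDR, 2.95% over 500 bp and 2.14% over 2 kb from a start site, and 1.60 to 1.83% from 1 replicate alone. For the host's promoter peak the odds ratio of 1.00 was 1.55 with the conservative list and 1.12 to 1.32 from 1 replicate alone. At 500 bp it was 1.80, where a distal peak could itself count as the promoter peak. Against later introns, the odds ratio of being on both replicates' lists passed the adjusted exact test at 1.59 (500 bp), 1.57 (protein-coding genes only), 1.60 (1 peak per chain, added after the data were seen) and 1.63 to 1.87 from 1 replicate alone, where it missed at 1.52 in the whole list. It also missed at 1.46 with the conservative list, 1.37 over 2 kb, 1.35 without summits also in a later intron, 1.72 at the stricter IDR, 1.55 in the strongest peak of each gene and 1.502 with transposable elements as genes (adjusted exact p = 0.125, 0.527, 0.565, 0.826, 0.0638 and 0.0815). With 1 replicate alone every peak is on that replicate's own list, so the odds ratio then compares presence on the other list only. Against intergenic peaks that odds ratio ranged from 1.07 to 1.76 from 1 replicate alone and passed with replicate 1 only (1.76). The odds ratio of signal above the median against later introns was 1.71 from either replicate, past the threshold in both. Of 21 motifs 4 passed at the summits, and 2 did, ACAGTG and ACACTG, over 2 kb from a start site and in the strongest peak of each gene. Within 50 bp of the summit 2 others did, the GAGA and CA repeats, both less frequent at the summit. At the stricter IDR 5 did, ACAGTG and ACACTG, and the CA repeat, the E-box CAGCTG and the run of 8 A as less frequent at the summit. From 1 replicate alone 4 to 5 passed. ACAGTG passed under all 14 alternatives but the 50 bp window. All 6-base words gave 23 calls, and 28 with 1 peak per chain, of which 22 were shared. The cause of these changes was not tested. No paired analysis was possible because there was 1 group. Transposable elements counted as genes, an alternative added after the data were seen, gave 519 members and changed no call named here.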

Other observations

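Some first-intron regions met the IDR threshold but were not on the joint thresholded list, and they include the strongest first-intron candidate. Of 545 first-intron candidates with a global IDR of at most 0.01, 19 (3.49%) were not listed, against 78 of 2955 (2.64%) over all classes. The sources used here do not say which step left them out. The strongest lay in ush, which encodes a cofactor of GATA factors, at chr2L:480918-481250, with a joint signal of 1912, and 1094 and 827 in replicates 1 and 2. This exceeds the 1061 of the strongest member. tara had 4 such regions, the strongest at chr3R:16236842-16237082 with 250.7 and 228.5 in replicates 1 and 2. trx had 1, with 242.1 and 217.7, and crp had 2, the stronger with 125.4 and 126. None of the 19 was on either replicate's own thresholded list or overlapped a listed peak. They are counted above among the candidates not on the list.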
